A study of Mus musculus with 48 samples.

Results

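Transcripts of the Ink4/Arf inhibitors (*Cdkn2a*, *Cdkn2b*, *Cdkn2c* and *Cdkn2d*), of the CIP/KIP inhibitor *Cdkn1b*, of the pocket proteins (*Rb1*, *Rbl1* and *Rbl2*) and of the senescence markers *Lmnb1* and *Glb1* were followed through reprogramming. These 10 genes were chosen by symbol, and 9 of them have a row among the 24010 genes measured. *Cdkn2d* (p19Ink4d) had no row under that symbol and was not analysed here. Poly(A) RNA was sequenced from 48 libraries of mouse cells, in 16 groups of 3 libraries. *Mettl14* OE, *Mettl3* OE and Control OE (empty vector) cells were collected on days 3, 6, 9, 12 and 15 of doxycycline (1 µg/ml), in ES medium with LIF. All of these cells, the controls included, came from *Rosa26*-M2rtTA; *Col1a1*-4F2A; *Oct4*-GFP mouse embryonic fibroblasts (MEFs), in which doxycycline switches on *Oct4*, *Sox2*, *Klf4* and *c-Myc* (OSKM), and the MEF group is the same cells without doxycycline, listed as day 0. Day 3 also differs from day 0 in time in culture, and the vector and ES medium are given for the 3 arms only. In Control OE day 3 against MEFs, doxycycline therefore cannot be told apart from these. The sources used here do not say whether libraries of a group came from separate cultures, so p-values measure the spread between these libraries, which may be technical.

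The INK4 proteins bind CDK4 and CDK6 and keep them from cyclin D, whereas p27, the product of *Cdkn1b*, binds cyclin-CDK2 complexes. Unphosphorylated pocket proteins hold E2F factors in check and so restrain entry into S phase. *Cdkn2a* also encodes p19Arf, which stabilizes p53 by binding MDM2, and the *Cdkn2a*/*Cdkn2b* locus is known as a barrier to reprogramming. Loss of lamin B1 (*Lmnb1*) and more lysosomal beta-galactosidase (*Glb1*) are widely used as signs of senescent cells.

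*Cdkn2a* has a pair of start sites that lie 12427 bases apart, and its single FPKM row cannot tell p16Ink4a from p19Arf. The 250 bases upstream of each start, and those of *Rbl1*, are shown because one *Cdkn2a* start and *Rbl1* hold the E2F consensus. The letters searched were TTT, then 2 bases that are each C or G, then CGC, on both strands. Sequences are from RefSeq, build GRCm38.p6, minus strand of the chromosome, written 5′ to 3′, with the matched letters in capitals. They run from chr4:89294620-89294869 for the upstream *Cdkn2a* start (p19Arf), chr4:89282193-89282442 for the downstream start (p16Ink4a) and chr2:157204535-157204784 for *Rbl1*. The deposited values were made on build mm9 and carry no coordinates.
Cdkn2a upstream start: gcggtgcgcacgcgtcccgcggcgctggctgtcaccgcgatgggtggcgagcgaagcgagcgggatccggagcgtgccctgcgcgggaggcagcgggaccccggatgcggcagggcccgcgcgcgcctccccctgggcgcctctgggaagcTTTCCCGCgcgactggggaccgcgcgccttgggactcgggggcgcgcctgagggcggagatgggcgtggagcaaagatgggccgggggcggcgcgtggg
Cdkn2a downstream start: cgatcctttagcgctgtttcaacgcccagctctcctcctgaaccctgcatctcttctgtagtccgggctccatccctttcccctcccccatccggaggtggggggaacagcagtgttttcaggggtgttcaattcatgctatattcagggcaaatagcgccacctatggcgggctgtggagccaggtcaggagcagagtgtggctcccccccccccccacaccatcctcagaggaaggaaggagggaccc
Rbl1: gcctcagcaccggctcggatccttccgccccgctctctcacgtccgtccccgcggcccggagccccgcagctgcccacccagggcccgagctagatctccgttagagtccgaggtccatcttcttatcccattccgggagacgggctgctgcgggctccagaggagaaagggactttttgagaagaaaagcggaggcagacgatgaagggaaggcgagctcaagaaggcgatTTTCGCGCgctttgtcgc

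The match lies 99 to 92 bases before the upstream *Cdkn2a* start and 18 to 11 bases before the *Rbl1* start. The window of the downstream *Cdkn2a* start holds none. Of 32851 promoter windows of this length, 611 (1.86%) hold a match. The cell cycle homology element (TTTGAA, either strand) was found in the windows of *Cdkn2b* and *Rbl2* and in 16% of all windows. *Rb1* and *Lmnb1* had no window in the table used. A match is a description of these letters only.

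The 48 libraries stand in 3 tables of the deposited file, which hold MEFs with day 3 (12 libraries), days 6 and 9 (18) and days 12 and 15 (18). Between tables the median gene of each arm was 1.89 to 2.07 times as high on day 6 as on day 3, and 0.90 to 0.94 times as high on day 12 as on day 9. Changes were therefore tested only within a table. Depth was not stated and was estimated from the smallest FPKM values at 13.0 to 37.1 M fragments per library (median 23.4). Under that estimate the lowest values rest on about 47 fragments for *Glb1*, 52 for *Rb1* and 75 for *Cdkn2c*, and the highest on about 2933 for *Lmnb1*. *Mettl14* lay at 184 to 476 FPKM in its own arm, against 4.30 to 7.47 elsewhere, and *Mettl3* at 1078 to 2919 FPKM in its own arm, against 3.33 to 6.79 elsewhere. All 6 fibroblast markers reached a mean of 1 FPKM in MEFs. In bulk RNA, fewer cells of a type and less RNA per cell cannot be told apart.

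**Figure D1:**
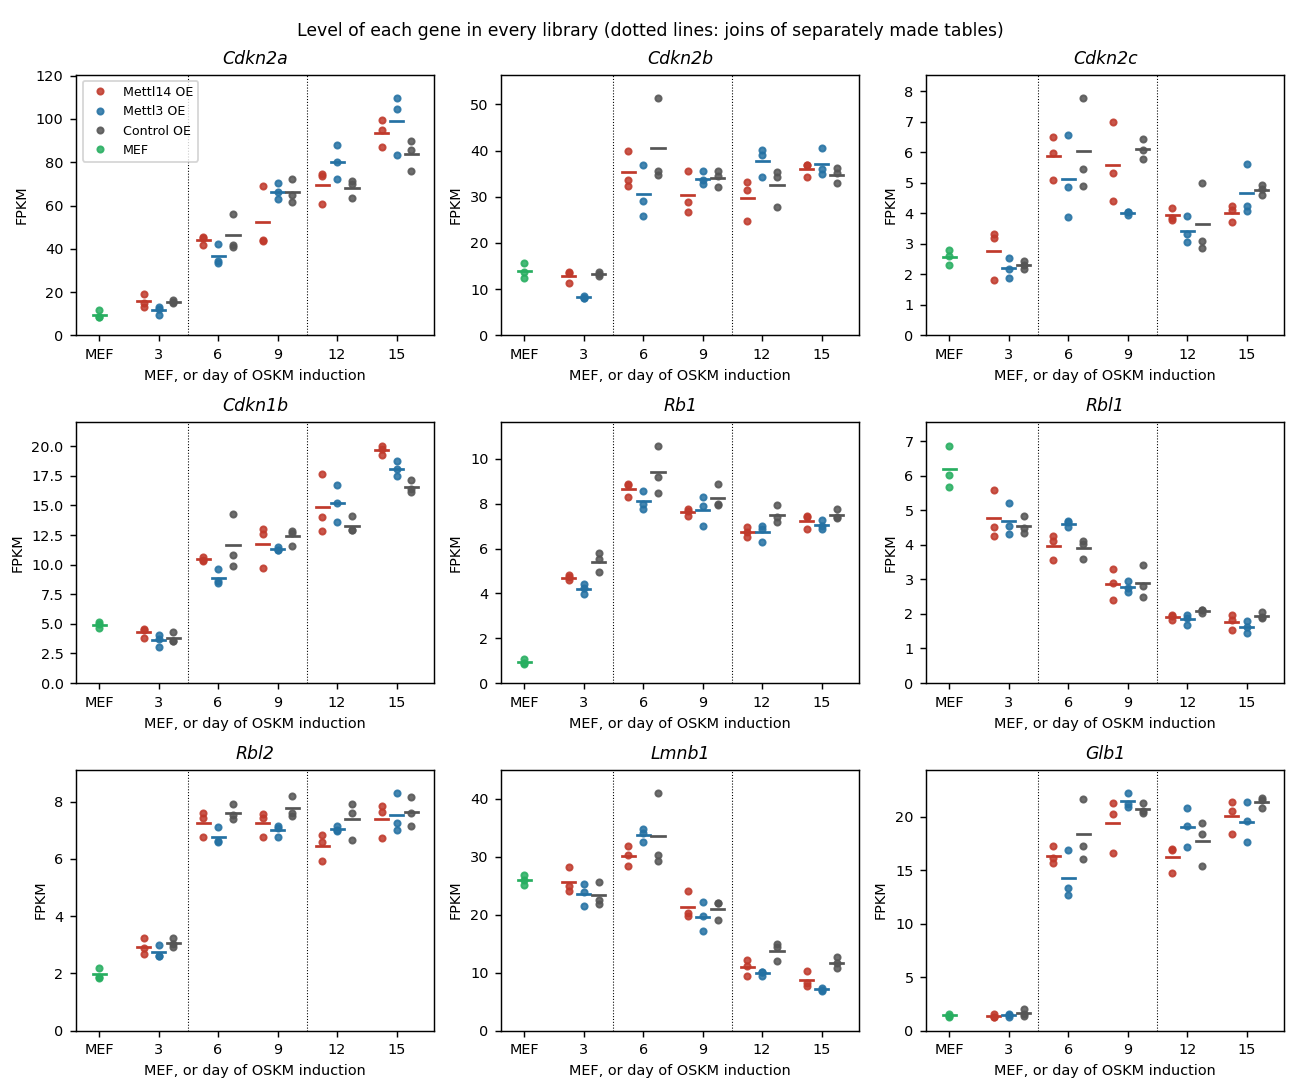
Level in FPKM of the 9 measured genes in every library (points) with the group mean (bars), for MEFs and for *Mettl14* OE, *Mettl3* OE and Control OE on days 3 to 15. Dotted lines mark joins between tables. *Cdkn2a* spans 8.31 to 109.5 FPKM over all libraries, and *Rbl1* and *Lmnb1* lie lowest on days 12 and 15.

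To ask whether the overexpressed factors changed these genes, each OE arm was compared with Control OE of the same day, 3 libraries against 3, with limma on log2(FPKM + 1). Changes below are on this scale, which understates those of low genes, and adjusted p-values are Benjamini-Hochberg values over all genes tested in a fit. A gene was called at an adjusted p of at most 0.05. For *Mettl14* OE, 0 of 45 pairs of gene and day were called, where 0.236% of all genes were called over the 5 days. Of the 45, 5 had an unadjusted limma p under 0.05. Among all genes such a p was held by 337 of 9863 on day 3, 825 of 11545 on day 6 and 729 of 11792 on day 9. On day 12 it was held by 2922 of 11933 and on day 15 by 2059 of 12134. For *Mettl3* OE, 5 of 45 (11.1%) were called, all lower, against 8.71% of all genes (5.46% lower). The share was thus near that of all genes. Count and direction depended on the processing, with 3 higher and 7 lower under median-ratio scaling, 0 higher and 7 lower under quantile normalization, 9 calls in a fit of all 48 libraries and 3 with no filter. On day 6, where none of the 9 genes was called in *Mettl3* OE, that fit of all libraries called *Cdkn2b* (-0.38, adjusted p = 0.027), *Cdkn1b* (-0.35, adjusted p = 0.017) and *Glb1* (-0.34, adjusted p = 0.018), and *Cdkn1b* also passed under both scalings (-0.32 and -0.33). With the day 6 libraries alone and no replicate block, their adjusted p-values were 0.20, 0.11 and 0.14. With a replicate block these genes and *Cdkn2a* were called lower on day 6, as given in the last section. Both arms were set against the same Control OE libraries, so the results of the 2 arms are not independent of each other. Set directly against *Mettl3* OE, *Mettl14* OE differed in 1 of 45 pairs (5.72% of all genes). Without *Mettl14* OE day 9 replicate 2 that count became 3, and without *Mettl14* OE day 9 replicate 1 it became 2.

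**Figure D2:**
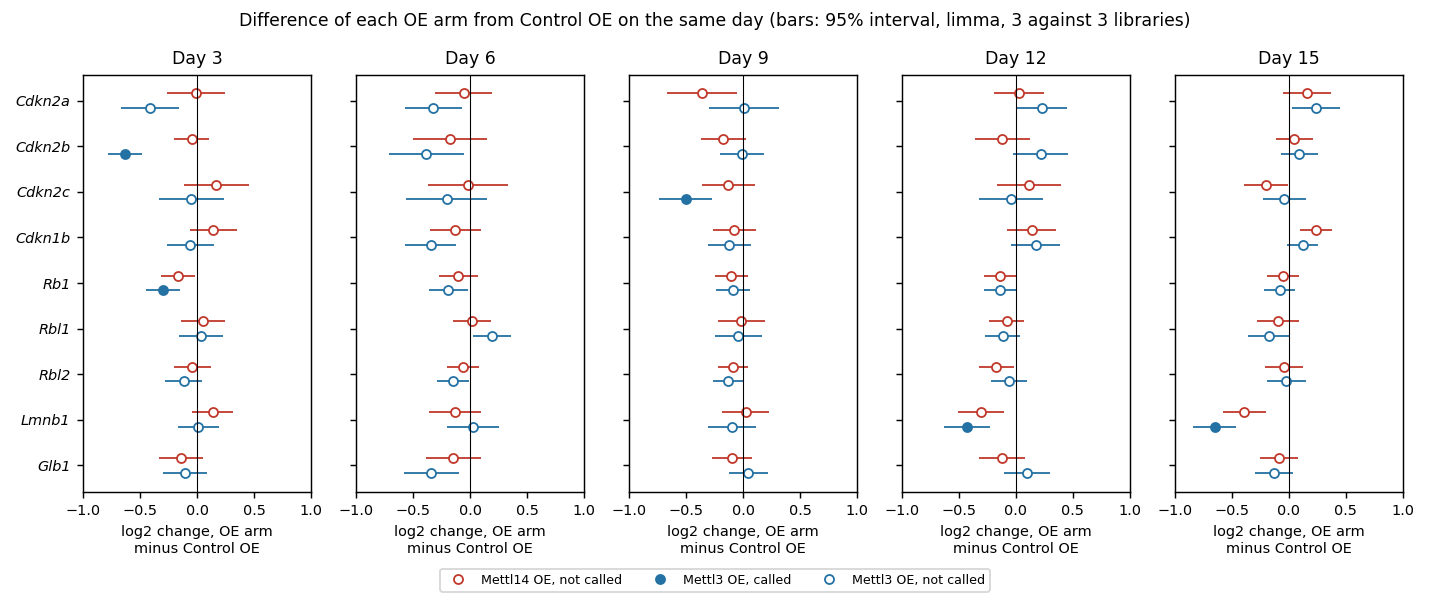
Log2 change of each gene in *Mettl14* OE (red) and *Mettl3* OE (blue) relative to Control OE on the same day, with the 95% interval from limma. Filled points have an adjusted p of at most 0.05. The 5 filled points all belong to *Mettl3* OE and lie below 0.

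*Cdkn2a* was higher on day 3 of OSKM induction than in MEFs in Control OE, and its group mean was highest on day 15 in each arm. In the table of MEFs and day 3 it lay at 8.45, 8.31 and 11.7 FPKM in MEFs and, in Control OE, at 15.1, 15.5 and 16.2 FPKM on day 3. Control OE cells then had 55.9, 41.0 and 41.9 FPKM (day 6), 61.5, 64.6 and 72.4 FPKM (day 9), 71.3, 63.2 and 69.9 FPKM (day 12) and 89.6, 85.5 and 75.9 FPKM (day 15). No Control OE library of day 3 overlapped the MEFs, whereas replicate 3 of *Mettl3* OE on day 3, at 9.48 FPKM, lay inside their range. Each later group stood above the MEFs and day 3. Control OE on day 3 exceeded MEFs by 0.68 (SE 0.15, adjusted p = 1.4e-04). On day 9 *Cdkn2a* exceeded day 6 by 0.85 in *Mettl3* OE (SE 0.15, adjusted p = 9.2e-06) and by 0.52 in Control OE (SE 0.15, adjusted p = 0.0039), and it differed by 0.21 in *Mettl14* OE (SE 0.15, adjusted p = 0.26), which passed under median-ratio scaling (0.30, adjusted p = 0.030) and quantile normalization (0.33, adjusted p = 0.0089). These steps were not shown to differ between arms, since the step of *Mettl14* OE minus that of Control OE was -0.31 (95% interval -0.71 to 0.10, adjusted p = 1) and that of *Mettl3* OE minus that of Control OE was 0.33 (-0.07 to 0.73, adjusted p = 0.52). From table to table, day 6 was 2.81, 3.17 and 2.96 times day 3 in *Mettl14* OE, *Mettl3* OE and Control OE, against 1.89, 2.06 and 2.07 times for the median gene.

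On day 9 the *Mettl14* OE libraries lay apart from each other in *Cdkn2a*. The values were 43.6, 69.2 and 44.3 FPKM in *Mettl14* OE, 62.9, 70.2 and 66.2 FPKM in *Mettl3* OE and 61.5, 64.6 and 72.4 FPKM in Control OE. Replicate 2 of *Mettl14* OE lay among the Control OE libraries and the other two lay below all of them. The FPKM of all genes summed to 3.16e+05, 4.06e+05 and 2.89e+05 in *Mettl14* OE replicates 1 to 3. In Control OE the sums were 3.97e+05, 3.88e+05 and 3.90e+05. Leaving out replicate 2 thus keeps the libraries with the low sums, and the part of these sums in the changes was not tested. The difference from Control OE was -0.36 (SE 0.16, 95% interval -0.67 to -0.06, adjusted p = 0.73), and without replicate 2 it was -0.58 (adjusted p = 0.0023). *Cdkn2b* moved the same way, at -0.17 (SE 0.10, 95% interval -0.37 to 0.02, adjusted p = 0.73) with all libraries and -0.29 (adjusted p = 0.031) without it. With it neither passed after adjustment over all genes, and only the interval of *Cdkn2a* left out 0.

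On day 15 *Cdkn2a* stood at 99.4, 94.7 and 87.0 FPKM in *Mettl14* OE, 104, 109.5 and 83.4 FPKM in *Mettl3* OE and 89.6, 85.5 and 75.9 FPKM in Control OE. All arms overlapped. The difference from Control OE was 0.16 for *Mettl14* OE (SE 0.11, 95% interval -0.05 to 0.37, adjusted p = 0.45) and 0.24 for *Mettl3* OE (SE 0.11, 0.02 to 0.45, adjusted p = 0.15). With median-ratio scaling the *Mettl3* OE difference was 0.33 (adjusted p = 0.035), that of day 12 was 0.23 (adjusted p = 0.047) and that of *Cdkn2b* on day 15 was 0.19 (adjusted p = 0.022). Relative to day 12, *Cdkn2a* on day 15 was higher in *Mettl14* OE by 0.43 (SE 0.15, adjusted p = 0.024), beside 0.30 in *Mettl3* OE (adjusted p = 0.22) and 0.29 in Control OE (adjusted p = 0.17). The median change of all genes was 0.15 in that *Mettl14* OE step. The call was lost under median-ratio scaling, under quantile normalization and without *Mettl14* OE day 15 replicate 1 or 2 or day 12 replicate 3, with values of 0.14 to 0.48 and an adjusted p of up to 0.34 over the alternatives.

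*Cdkn2b*, which encodes p15Ink4b and lies 11669 bases from *Cdkn2a*, held the clearest difference between arms on day 3 among the measured members. On day 3 it lay at 8.11, 8.01 and 8.57 FPKM in *Mettl3* OE, against 13.6, 13.4 and 13.0 FPKM in Control OE. *Mettl14* OE lay at 13.6, 13.6 and 11.4 FPKM. All *Mettl3* OE libraries fell below all others of that day. The change was -0.63 against Control OE (SE 0.08, adjusted p = 8.2e-04), and *Mettl14* OE exceeded *Mettl3* OE by 0.58 (SE 0.08, adjusted p = 0.0022). Both calls held under every alternative tried, leaving out each library included. *Cdkn2a* on day 3 pointed the same way, at 13.0, 12.2 and 9.48 FPKM in *Mettl3* OE against 15.1, 15.5 and 16.2 FPKM in Control OE, but its change of -0.41 missed the threshold (SE 0.13, adjusted p = 0.070). It passed under median-ratio scaling (-0.39, adjusted p = 0.038) and quantile normalization (-0.38, adjusted p = 0.037). The summed fibroblast markers (6 of 6 with a row, 3 at a mean of 1 FPKM, none at 0) ran from 31.8 to 35.0 FPKM in *Mettl3* OE and from 56.8 to 57.8 FPKM in Control OE on day 3, and their part in these values was not tested.

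*Cdkn2b* was not called between day 3 and MEFs, with 13.6, 13.4 and 13.0 FPKM in Control OE on day 3 against 12.4, 13.8 and 15.7 FPKM in MEFs (-0.06, 95% interval -0.30 to 0.18), though quantile normalization gave -0.23 (adjusted p = 0.033). From day 6 on it ranged from 24.8 to 51.3 FPKM. It was called in none of the 6 steps from day 6 to 9 or from day 12 to 15 over the 3 arms, with changes of -0.22 to 0.27. Without *Mettl14* OE day 9 replicate 2 the day 9 step of *Mettl14* OE was called, at -0.33 (adjusted p = 0.044) rather than -0.21, and under median-ratio scaling that of *Mettl3* OE was (0.24, adjusted p = 0.043). The share of *Cdkn2a* in the summed FPKM of *Cdkn2a*, *Cdkn2b* and *Cdkn2c*, a measure that does not depend on the scaling of a library, was 36.2 ± 2.56% in MEFs (SD, n = 3). In Control OE it was 49.98 ± 1.31% (day 3), 50.02 ± 1.39% (day 6), 62.2 ± 1.69% (day 9), 65.5 ± 1.53% (day 12) and 67.9 ± 2.09% (day 15). The share of *Cdkn2b* ran the other way, at 53.8 ± 1.94% in MEFs, 32.1 ± 1.51% on day 9 and 28.2 ± 1.86% on day 15. On day 15 the share of *Cdkn2a* was 70.1 ± 0.62% in *Mettl14* OE and 70.2 ± 2.38% in *Mettl3* OE. A share does not remove a difference of single genes between tables. From day 3 to 6 and from day 9 to 12 the day therefore cannot be told apart from the table in these shares.

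*Mtap*, the other measured neighbour of the locus and a gene of methionine salvage, did not follow *Cdkn2a*. It was lower on day 3 in Control OE than in MEFs with a change of -0.60 (adjusted p = 7.0e-06), at 14.2 ± 0.89 against 22.1 ± 1.26 FPKM (SD, n = 3 each). On day 9 it was also lower than on day 6 in all arms, with -0.65 in *Mettl14* OE, -0.64 in *Mettl3* OE and -0.73 in Control OE.

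*Cdkn2c* (p18Ink4c) was the lowest of the 3 measured INK4 genes. On day 9 it lay at 4.04, 4.05 and 3.94 FPKM in *Mettl3* OE, against 6.08, 5.79 and 6.45 FPKM in Control OE, and at 4.41, 6.99 and 5.32 FPKM in *Mettl14* OE. The *Mettl3* OE libraries lay below all others of that day. The change was -0.50 (SE 0.12, adjusted p = 0.023). The call was lost without *Mettl3* OE day 9 replicate 1, 2 or 3 or Control OE day 9 replicate 1 or 3, at changes of -0.51 to -0.47 and adjusted p of 0.068 to 0.092. On the other days the *Mettl3* OE change was between -0.21 and -0.04 and was not called. Summed epithelial markers on day 9 (5 of 5 at a mean of 1 FPKM) ran from 728 to 771 FPKM in *Mettl3* OE and from 465 to 555 FPKM in Control OE, and their part in this was not tested.

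*Cdkn1b*, which encodes p27Kip1, was lower on day 3 than in MEFs, with 3.56, 4.32 and 3.52 FPKM in Control OE against 5.15, 4.62 and 5.01 FPKM in MEFs (-0.31, SE 0.10, adjusted p = 0.012). This call was lost without Control OE day 3 replicate 1 or 3 (adjusted p of up to 0.058). In *Mettl3* OE it lay at 11.3, 11.2 and 11.5 FPKM on day 9 against 9.61, 8.60 and 8.44 FPKM on day 6, with no overlap (0.32, SE 0.10, adjusted p = 0.011). The same step was 0.15 in *Mettl14* OE and 0.09 in Control OE, neither called, and both passed under median-ratio scaling (0.23 and 0.22). On day 15 *Cdkn1b* lay at 19.3, 20.0 and 19.8 FPKM in *Mettl14* OE, 18.7, 17.5 and 18.1 FPKM in *Mettl3* OE and 16.4, 17.2 and 16.2 FPKM in Control OE. The 3 arms did not overlap. Even so the difference from Control OE was not called, at 0.24 for *Mettl14* OE (SE 0.07, adjusted p = 0.11, where 1.05% of all genes were called) and 0.12 for *Mettl3* OE (SE 0.07, adjusted p = 0.25, where 14.8% were). From day 12 to day 15 it rose by 0.40 in *Mettl14* OE (SE 0.10, adjusted p = 0.0040) and by 0.30 in Control OE (SE 0.10, adjusted p = 0.044), and in *Mettl3* OE the change was 0.24 (adjusted p = 0.14, or 0.28 and 0.046 with median-ratio scaling). The *Mettl14* OE step was lost under quantile normalization (0.20, adjusted p = 0.093). That of Control OE was lost under both scalings, a pseudocount of 0.1, no filter and without any of Control OE day 15 replicates 1 to 3 or day 12 replicates 2 and 3, with an adjusted p of up to 0.13.

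The pocket proteins changed places. *Rb1* lay at 4.95, 5.79 and 5.51 FPKM in Control OE on day 3, against 0.857, 0.891 and 1.08 FPKM in MEFs. The groups stood far apart, with *Rb1* higher on day 3 by 1.72 on the log2(FPKM + 1) scale (SE 0.07, adjusted p = 1.8e-23). Over the alternatives this change ran from 1.65 to 2.41. *Rbl2* (p130) was also higher on day 3, with 3.01, 2.90 and 3.22 FPKM in Control OE against 2.17, 1.88 and 1.83 FPKM in MEFs (0.45, SE 0.07, adjusted p = 9.2e-07). *Rbl1* (p107) was lower, with 4.84, 4.50 and 4.34 FPKM in Control OE against 5.67, 6.87 and 6.02 FPKM in MEFs (-0.37, SE 0.09, adjusted p = 5.4e-04). *Lpar6*, a receptor gene that lies within *Rb1* on the opposite strand, was higher as well, at 2.47 ± 0.54 FPKM in Control OE on day 3 against 1.46 ± 0.06 FPKM in MEFs. Whether reads were counted by strand is not given in the sources used here, so reads of the overlap cannot be assigned.

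As shares of the summed FPKM of the 3 pocket genes, *Rb1* made up 10.4 ± 1.47%, *Rbl1* 68.0 ± 3.08% and *Rbl2* 21.7 ± 2.91% in MEFs (SD, n = 3). On day 3 in Control OE the shares were 41.6 ± 2.67%, 35.0 ± 2.46% and 23.4 ± 1.32%. *Rbl1* took 18.7 ± 0.74% (day 6), 15.3 ± 1.81% (day 9), 12.3 ± 0.94% (day 12) and 11.4 ± 0.92% (day 15). From day 3 to 6 and from day 9 to 12 these shares stand in different tables, and the day cannot be told apart from the table. *Rbl2* took 44.6 ± 1.51% on day 15. The *Rbl1* share on day 15 was 10.8 ± 1.33% in *Mettl14* OE and 10.0 ± 0.62% in *Mettl3* OE. On day 6 it was 23.7 ± 0.84% in *Mettl3* OE and 18.7 ± 0.74% in Control OE, with no overlap of libraries. The *Rbl1* level of that day lay at 4.66, 4.51 and 4.69 FPKM in *Mettl3* OE against 4.13, 3.59 and 4.03 FPKM in Control OE, a change of 0.19 that was not called (SE 0.08, adjusted p = 0.20).

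**Figure D3:**
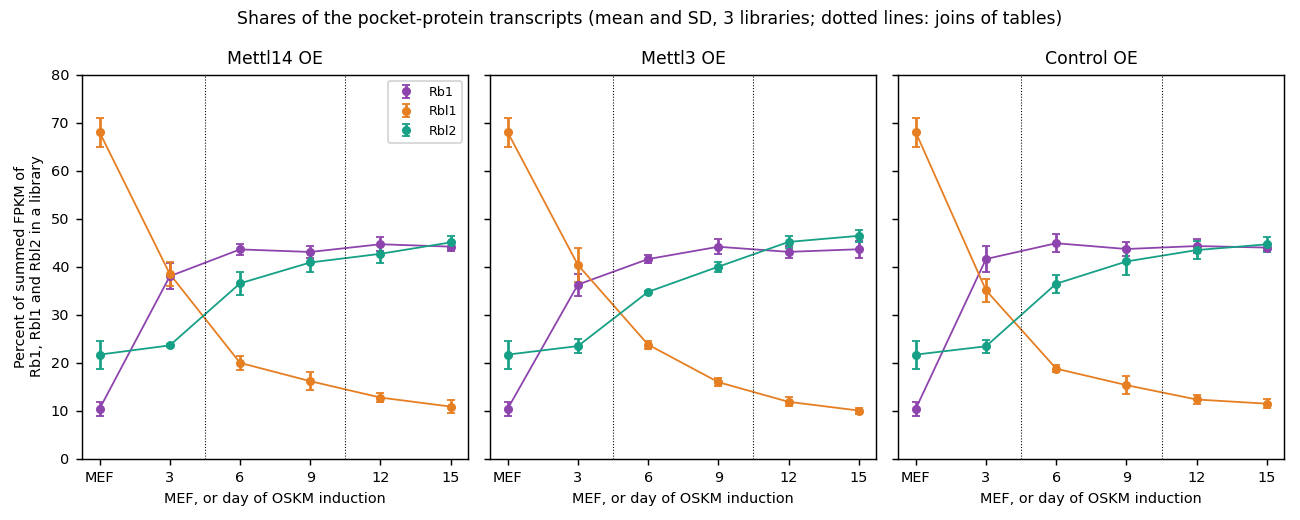
Percent of the summed FPKM of *Rb1*, *Rbl1* and *Rbl2* taken by each gene in MEFs and on days 3 to 15, by arm (mean and SD of 3 libraries). The MEF points are the same in each panel, and dotted lines mark joins between tables. *Rbl1* is the largest share in MEFs and the smallest from day 6 on in each arm.

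*Rbl1* fell between day 6 and day 9 in all arms. It lay at 2.42, 3.29 and 2.89 FPKM on day 9 against 3.55, 4.25 and 4.11 FPKM on day 6 in *Mettl14* OE (-0.37, SE 0.09, adjusted p = 9.9e-04). In *Mettl3* OE it lay at 2.75, 2.65 and 2.95 FPKM on day 9 against 4.66, 4.51 and 4.69 FPKM on day 6 (-0.57, SE 0.09, adjusted p = 1.6e-06). In Control OE it lay at 3.42, 2.81 and 2.48 FPKM on day 9 against 4.13, 3.59 and 4.03 FPKM on day 6 (-0.34, SE 0.09, adjusted p = 0.0020). Days did not overlap in any arm. *Rb1* changed far less over this step, with changes of -0.16 for *Mettl14* OE (adjusted p = 0.042), -0.06 for *Mettl3* OE (adjusted p = 0.46) and -0.16 for Control OE (adjusted p = 0.040). The *Mettl14* OE call of *Rb1* was lost under 12 of 15 alternatives and the Control OE call under 11 of 15, so neither is firm. Among the libraries, *Mettl14* OE day 6 replicates 2 and 3 and day 9 replicates 1, 2 and 3, and Control OE day 6 replicates 1 and 3 and day 9 replicates 2 and 3, each ended a call (adjusted p of up to 0.33 in *Mettl14* OE and 0.71 in Control OE over all alternatives).

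Between arms, *Rb1* was lower in *Mettl3* OE on day 3, at 4.25, 3.97 and 4.42 FPKM against 4.95, 5.79 and 5.51 FPKM in Control OE (-0.30, SE 0.07, adjusted p = 0.031). *Mettl14* OE lay between them at 4.80, 4.71 and 4.59 FPKM (-0.17, SE 0.07, adjusted p = 1.0). The *Mettl3* OE call was lost with no filter and without Control OE day 3 replicate 2 or 3 or *Mettl3* OE day 3 replicate 1 or 2 (adjusted p of up to 0.10). Averaged over the 5 within-day differences in a fit of all 48 libraries, *Rb1* was lower than Control OE in both arms, with changes of -0.11 in *Mettl14* OE (SE 0.03, adjusted p = 0.017) and -0.16 in *Mettl3* OE (SE 0.03, adjusted p = 4.8e-05). *Rbl2*, which lay at 5.92 to 8.29 FPKM from day 6 on, was lower in *Mettl3* OE in these averages (-0.10, SE 0.03, adjusted p = 0.016). It was called in none of the steps from day 6 to 9 or from day 12 to 15, though in *Mettl14* OE the change of 0.17 from day 12 to 15 (adjusted p = 0.056) became 0.23 without day 15 replicate 3 (adjusted p = 0.018) and 0.21 without day 12 replicate 2 (adjusted p = 0.036). In these averages 1 of 9 genes was called in *Mettl14* OE (13.1% of all genes) and 4 of 9 in *Mettl3* OE (35.5% of all genes). The median of all genes in *Mettl14* OE was -0.06, and the *Mettl14* OE call of *Rb1* was lost under both scalings (-0.04, adjusted p = 0.55 at the weakest).

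*Lmnb1*, the gene of lamin B1, fell from day 6 to 9 in all arms, and its group mean was lowest in *Mettl3* OE on days 9, 12 and 15. MEFs had 25.1, 26.9 and 26.0 FPKM. Control OE cells had 22.5, 21.8 and 25.7 FPKM (day 3), 41.0, 30.3 and 29.3 FPKM (day 6), 22.0, 19.1 and 22.0 FPKM (day 9), 14.9, 12.0 and 14.5 FPKM (day 12) and 11.7, 10.7 and 12.7 FPKM (day 15). From day 3 to 6 and from day 9 to 12 the day cannot be told apart from the table in these values. Replicate 1 of Control OE on day 6 stood above the other two, as it did for all 9 genes. Day 3 differed from MEFs by -0.15 (adjusted p = 0.25), a change that passed under median-ratio scaling (-0.30, adjusted p = 0.0024) and quantile normalization (-0.33, adjusted p = 0.0011). Day 9 was lower than day 6 by a change of -0.48 in *Mettl14* OE (SE 0.11, adjusted p = 5.1e-04), -0.76 in *Mettl3* OE (SE 0.11, adjusted p = 4.9e-07) and -0.64 in Control OE (SE 0.11, adjusted p = 1.2e-05). Without Control OE day 6 replicate 1 the Control OE call remained. Day 15 was lower than day 12 in *Mettl14* OE (-0.30, SE 0.11, adjusted p = 0.035) and *Mettl3* OE (-0.43, SE 0.11, adjusted p = 0.0086), and in Control OE the change was -0.21 (SE 0.11, adjusted p = 0.17). The *Mettl14* OE call was lost with no filter and without *Mettl14* OE day 15 replicate 2 or 3 or day 12 replicate 1 or 3 (adjusted p of up to 0.18). The Control OE change passed under median-ratio scaling (-0.26, adjusted p = 0.026) and quantile normalization (-0.32, adjusted p = 0.0064).

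On day 15 *Lmnb1* lay at 6.83, 7.39 and 7.06 FPKM in *Mettl3* OE and at 10.3, 8.23 and 7.76 FPKM in *Mettl14* OE, against 11.7, 10.7 and 12.7 FPKM in Control OE. Both OE arms lay below every Control OE library. The change was -0.65 in *Mettl3* OE (SE 0.10, adjusted p = 9.2e-04), a call that held under every alternative. In *Mettl14* OE it was -0.39 (SE 0.10, 95% interval -0.58 to -0.20, adjusted p = 0.064) and missed the threshold. It passed under median-ratio scaling (-0.34, adjusted p = 0.032), quantile normalization (-0.35, adjusted p = 0.032), a filter at 5 FPKM (adjusted p = 0.035) and without Control OE day 15 replicate 2 (-0.45, adjusted p = 0.042) or *Mettl14* OE day 15 replicate 1 (-0.50, adjusted p = 0.022). The 2 OE arms were not shown to differ from each other (0.26 for *Mettl14* OE minus *Mettl3* OE, 95% interval 0.07 to 0.45, adjusted p = 0.31).

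Day 12 showed the same order, with 10.2, 9.46 and 10.2 FPKM in *Mettl3* OE and 12.3, 9.43 and 11.2 FPKM in *Mettl14* OE, against 14.9, 12.0 and 14.5 FPKM in Control OE. *Mettl3* OE lay below all Control OE libraries and *Mettl14* OE overlapped them. The change was -0.43 in *Mettl3* OE (SE 0.10, adjusted p = 0.032), while that of *Mettl14* OE was -0.31 (SE 0.10, adjusted p = 0.15). The *Mettl3* OE call was lost with no filter, without trend and robust moderation, and without Control OE day 12 replicate 1 or 3 or *Mettl3* OE day 12 replicate 1 or 2 (adjusted p of up to 0.12). Without Control OE day 12 replicate 2 the *Mettl14* OE changes of *Lmnb1* (-0.40, adjusted p = 0.021) and *Rbl2* (-0.24, adjusted p = 0.035) passed. Averaged over days, *Lmnb1* changed by -0.23 in *Mettl3* OE (SE 0.05, adjusted p = 3.2e-04), beside -0.13 in *Mettl14* OE (SE 0.05, adjusted p = 0.058). The *Mettl14* OE value passed with a filter at 5 FPKM (adjusted p = 0.048) and without each of 9 libraries in turn (adjusted p of up to 0.046). *Cdkn2b* changed by -0.14 in *Mettl3* OE (SE 0.06, adjusted p = 0.041), a call lost under 20 of 38 alternatives.

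Of the 8 proliferation genes fixed beside these members, 5 were lower in *Mettl3* OE than in Control OE on day 15 (*Top2a*, *Ccnb1*, *Aurkb*, *Bub1* and *Mcm2*) and none in *Mettl14* OE, where 12.1% of all genes were lower in *Mettl3* OE and 0.635% in *Mettl14* OE. The list's median change was -0.29 in *Mettl3* OE and -0.24 in *Mettl14* OE, against -0.08 and -0.04 for all genes. Averaged over the days the order was the other way. Then 5 of the 8 were lower in *Mettl14* OE (*Mki67*, *Top2a*, *Ccnb1*, *Bub1* and *Mcm2*), where 13% of all genes were lower. In *Mettl3* OE 2 were lower (*Top2a* and *Mcm2*), where 22.8% of all genes were. Among 6 lamina genes on day 15, *Lbr*, the lamin B receptor, was lower in *Mettl3* OE at 5.52 ± 0.46 FPKM against 7.96 ± 0.65 FPKM in Control OE (-0.46, SE 0.08, adjusted p = 0.0028), and the other 5 were not called. Summed pluripotency markers (6 of 6 with a row) ran from 7.79 to 11.5 FPKM in *Mettl3* OE and from 26.5 to 34.2 FPKM in Control OE on day 15. Macrophage markers (6 of 7 with a row, none at 0) ran from 19.1 to 21.7 FPKM in *Mettl3* OE and from 26.1 to 39.5 FPKM in Control OE. Fibroblast markers ran from 1562 to 1863 FPKM in *Mettl3* OE and from 1952 to 2252 FPKM in Control OE. Epithelial markers overlapped, at 728 to 859 FPKM in *Mettl3* OE and 715 to 819 FPKM in Control OE. Their part in the *Lmnb1* values was not tested.

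*Glb1*, which encodes lysosomal beta-galactosidase, was the gene most touched by the join between tables. It lay at 1.27 to 1.97 FPKM in the 12 libraries of MEFs and day 3 and at 12.7 to 22.2 FPKM in the later 36. Day 6 was 11.9, 9.98 and 11.3 times day 3 in *Mettl14* OE, *Mettl3* OE and Control OE, far above the 1.89, 2.06 and 2.07 times of the median gene, and here the day cannot be told apart from the table. Within the table of MEFs and day 3 it did not differ, at 1.39, 1.97 and 1.52 FPKM in Control OE on day 3 against 1.30, 1.56 and 1.38 FPKM in MEFs (0.12, 95% interval -0.08 to 0.32). *Tmppe*, which overlaps *Glb1* on the same strand, lay at 1.71 ± 0.17 FPKM in Control OE on day 3 against 1.22 ± 0.11 FPKM in MEFs, so reads of the overlap cannot be assigned with certainty.

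In *Mettl3* OE, *Glb1* lay at 21.2, 20.9 and 22.2 FPKM on day 9 against 16.9, 13.3 and 12.7 FPKM on day 6, with no overlap (0.56, SE 0.10, adjusted p = 2.4e-05). The change was 0.23 in *Mettl14* OE (adjusted p = 0.074) and 0.18 in Control OE (adjusted p = 0.16). The step of *Mettl3* OE minus that of Control OE was 0.39 (95% interval 0.10 to 0.67, adjusted p = 0.21), so the arms were not shown to differ. Without Control OE day 6 replicate 1 the Control OE change was 0.30 (adjusted p = 0.024), and both scalings gave a call in *Mettl14* OE (0.31 and 0.30) and in Control OE (0.31 and 0.29). From day 12 to day 15 *Glb1* rose in *Mettl14* OE (0.29, SE 0.10, adjusted p = 0.028), and the change was 0.26 in Control OE (adjusted p = 0.075) and 0.04 in *Mettl3* OE (adjusted p = 0.88). The *Mettl14* OE call was lost under both scalings, a pseudocount of 0.1 and without *Mettl14* OE day 15 replicate 1 or 2 or day 12 replicate 3 (values of 0.08 to 0.35, adjusted p of up to 0.53). Between arms *Glb1* was called on no day. On day 6 it passed in *Mettl3* OE against Control OE in the fit of all 48 libraries, as given above, and without *Mettl3* OE day 6 replicate 1 (-0.46, adjusted p = 0.045).

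**Figure D4:**
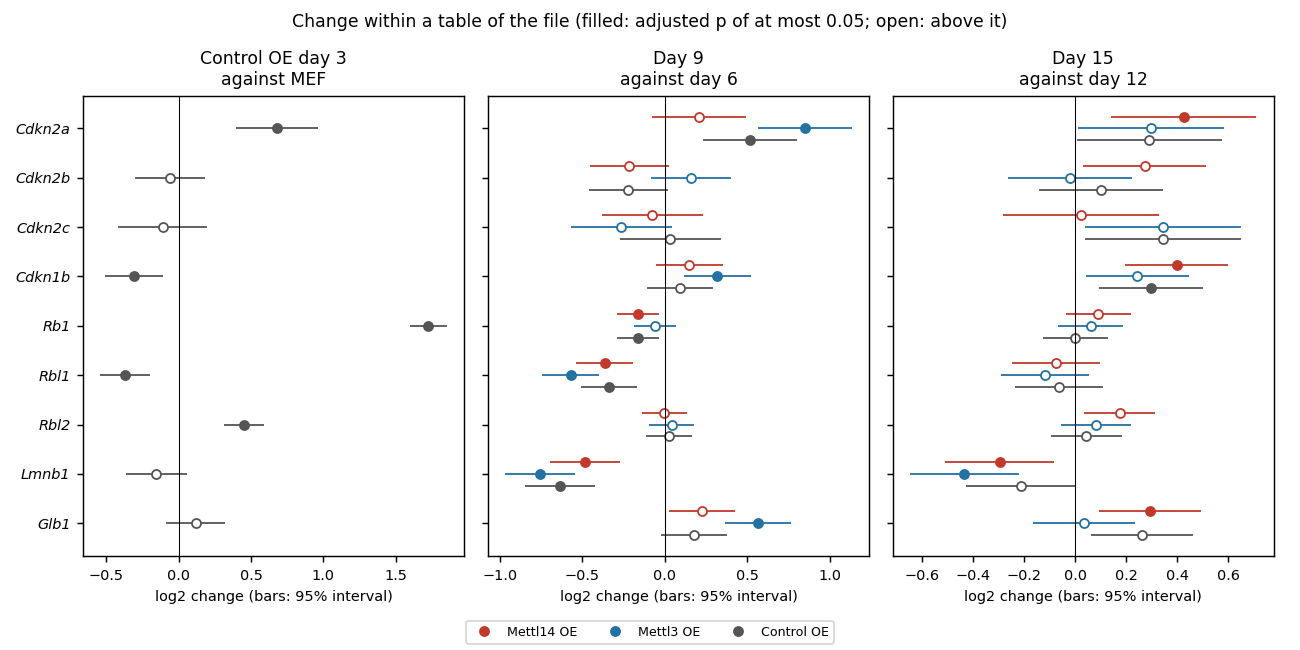
Log2 change with 95% interval for Control OE day 3 against MEF, day 9 against day 6 and day 15 against day 12, in *Mettl14* OE (red), *Mettl3* OE (blue) and Control OE (grey). Filled points have an adjusted p of at most 0.05. *Rb1* stands at 1.72 on day 3, and *Lmnb1* and *Rbl1* lie below 0 on day 9 in all 3 arms.

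Counted together, 5 of 9 genes were called in Control OE on day 3 against MEFs (3 higher and 2 lower), where 51.2% of all genes were. Over the 3 arms, 12 of 27 pairs were called for day 9 against day 6 (44.1% of all genes) and 6 of 27 for day 15 against day 12 (18.5% of all genes). These shares were close to those of all genes. By arm, the day 9 calls were 3 in *Mettl14* OE (41.1% of all genes), 5 in *Mettl3* OE (47.8%) and 4 in Control OE (43.3%), and the day 15 calls were 4 in *Mettl14* OE (31.1%), 1 in *Mettl3* OE (8.53%) and 1 in Control OE (15.8%). The directions depended on the scaling. The day 9 calls were 4 higher and 8 lower as deposited, 10 higher and 6 lower with median-ratio scaling and 7 higher and 6 lower with quantile normalization. Those of day 15 were 4 higher and 2 lower, 2 higher and 3 lower, and 0 higher and 3 lower in the same order, with *Lmnb1* lower in *Mettl14* OE and *Mettl3* OE under each. In the difference of a step between an OE arm and Control OE, 0 of 36 were called by limma, where 0.257% of all genes were. Of the 36, 2 had an unadjusted limma p under 0.05, both in the day 6 to 9 step of *Mettl3* OE. In that step 1644 of all 12738 genes had such a p, and in its day 12 to 15 step 717 did. In *Mettl14* OE 250 genes did from day 6 to 9 and 574 from day 12 to 15.

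Genes that act with these members were read from fixed lists. In Control OE on day 3, 34.0% of all genes were higher and 17.2% lower than in MEFs. Against MEFs, Control OE on day 3 was higher in 4 of 6 genes of the ARF-p53 axis (*Cdkn1a*, *Ccng1*, *Mdm2* and *Npm1*) and lower in *Trp53*. *Cdkn1a*, the p21 gene, was higher by 1.87 (SE 0.08, adjusted p = 2.4e-21), *Ccng1*, a p53 target, by 1.54 (SE 0.12, adjusted p = 5.7e-14) and *Mdm2*, the ligase of p53, by 1.00 (SE 0.08, adjusted p = 2.5e-14). Of the 8 G1 cyclins and CDKs, 3 were higher (*Ccnd2* by 1.90, *Ccnd1* by 1.24, and *Cdk6*) and 2 were lower (*Ccne1* and *Cdk4*). Of the 10 E2F and DP genes, 4 were lower (*E2f1*, *E2f3*, *E2f4* and most of all *E2f8*, at -1.35, adjusted p = 2.8e-15) and 2 were higher (*E2f6* and *Tfdp2*). Of the 8 proliferation genes, 4 were lower (*Top2a*, *Cdk1*, *Aurkb* and *Bub1*) and none higher. Of 10 Polycomb genes, which repress the *Cdkn2a* locus in fibroblasts, 4 were higher (*Cbx8*, *Ring1*, *Rnf2* and *Eed*). The p27 turnover list had 2 higher (*Skp1a* and *Rbx1*) and 2 lower (*Skp2* and *Cks1b*) of 5, the lamina list 2 higher (*Lmna* and *Emd*) and 2 lower (*Lmnb2* and *Tmpo*) of 6, and the MuvB list 1 higher (*Lin37*) of 6. Summed fibroblast markers ran from 56.8 to 57.8 FPKM in Control OE on day 3 and from 171 to 183 FPKM in MEFs, and epithelial markers from 30.1 to 40.1 FPKM in Control OE on day 3 and from 3.60 to 4.87 FPKM in MEFs. The fibroblast sum of Control OE was 757 to 941 FPKM on day 6 and 1952 to 2252 FPKM on day 15, which stand in other tables. The part of these markers in the changes was not tested.

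On day 9, 4 of the 6 ARF-p53 genes in *Mettl14* OE, 4 in *Mettl3* OE and 5 in Control OE were lower than on day 6, where 22.4%, 24.5% and 26.6% of all genes were lower in the same order of arms. *Cdkn1a* lay at 166 ± 1.46 FPKM on day 9 in Control OE against 227 ± 17.6 FPKM on day 6 (-0.45, SE 0.08, adjusted p = 4.0e-05), while *Cdkn2a* was higher in that arm. In *Mettl14* OE *Cdkn1a* was called lower and *Cdkn2a* was not called. In *Mettl3* OE *Cdkn2a* was called higher and *Cdkn1a* was not called. All 8 proliferation genes were lower in *Mettl3* OE and Control OE, and 7 of them in *Mettl14* OE. The last CIP/KIP gene, *Cdkn1c* (p57Kip2), was higher on day 9 in all arms, and on day 15 it was lower in both OE arms, at 18.8 ± 2.36 FPKM in *Mettl14* OE and 13.7 ± 0.43 FPKM in *Mettl3* OE against 27.4 ± 1.74 FPKM in Control OE (adjusted p = 0.013 for *Mettl14* OE and 2.2e-05 for *Mettl3* OE). In *Mettl3* OE *Cdkn1c* was also called lower than Control OE on days 3 and 9 and averaged over days. *Mettl14* OE was called higher than *Mettl3* OE in *Cdkn1c* on days 9 and 15. Of 12 lysosomal genes, 10 were higher on day 15 than on day 12 in *Mettl14* OE, 1 in *Mettl3* OE and 4 in Control OE. The shares of all genes that were higher had the same order, at 28.4%, 4.05% and 12.8%. In *Mettl14* OE the list's median change was 0.38, where that of all genes was 0.15.

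On day 3, *Mettl3* OE was lower than Control OE in 3 of the 7 G1 cyclins and CDKs tested, where 5.96% of all genes were lower. These were the D cyclins, with *Ccnd2* at -0.65 (SE 0.08, adjusted p = 6.9e-04), *Ccnd1* at -0.54 (SE 0.08, adjusted p = 0.0034) and *Ccnd3* at -0.38 (SE 0.10, adjusted p = 0.033). *Mybl2*, a MuvB partner, was higher in *Mettl3* OE on day 3, where 3.54% of all genes were higher. On day 15 *Mettl3* OE was lower in *Ccnd2*, *Cdk4*, *Tfdp1* and *Trp53*, where 12.1% of all genes were lower. It was then also lower in *Mybl2*, at 1.48 ± 0.11 FPKM against 4.44 ± 1.06 FPKM in Control OE (adjusted p = 6.1e-04). *Ezh2*, the Polycomb methyltransferase, was lower too (-0.34, SE 0.09, adjusted p = 0.024), and the other 9 of 10 Polycomb genes were not called. None of the p27 turnover genes was called between arms on day 15.

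The members fell into unlike patterns over the 12 group means of days 6 to 15, each centred within its table. *Cdkn2a* ran with *Glb1* (Pearson r = 0.89) and *Cdkn1b* (0.81) and against *Rbl1* (-0.88) and *Lmnb1* (-0.88), while *Rbl1* and *Lmnb1* ran together (0.90). *Cdkn2a* and its neighbour *Cdkn2b* had an r of 0.36, and *Rb1* and *Rbl1* of 0.51. These points share days, arms and the scaling of their libraries, and the values are descriptions. Among 12710 genes, those most like *Cdkn2a* were *Enpp5*, *Gstk1* and *Ramp3* (0.97 to 0.98), those most like *Rbl1* were *Polq*, *Frmd3* and *Rrm2* (0.99), and those most like *Lmnb1* were *Nup155*, *Prmt3* and *Lbr* (0.99). The nearest to *Rb1* were *Ccnd1*, *Fam216a* and *Msrb3* (0.95 to 0.96), and to *Cdkn2c* were *Bcl7c*, *Tmtc2* and *Foxf1* (0.88).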

How the data were processed

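Poly(A) RNA-seq of 48 libraries (16 groups of 3) was read as FPKM values. Per the labels and the submitters' processing notes, the authors aligned reads to mm9 with TopHat2 2.1.1 and made the deposited FPKM values with Cufflinks 2.2.1. The file holds 24013 lines in 3 tables made side by side. An exact copy of a line was dropped and values of a repeated symbol were added up, giving 24010 genes. Columns of no sample numbered 0. Where 3 gene columns differed (13 lines), or a date stood for a name (27 lines), no gene is named. Samples were grouped by their labels.

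FPKM values are not counts, so log2(FPKM + 1) was tested with limma 3.58.1 in R 4.3.3, with trend and robust moderation. Genes entered a fit at 1 FPKM or more in 3 or more of its libraries. Arms were compared within a day (9 libraries), and days and averages over days in a fit of all 48. The test was checked on simulated data with noise drawn independently for each gene and library. That check held no shift of a whole library and no likeness of same-numbered libraries. Tables were made in Python 3.11.15 (pandas 2.3.3, NumPy 2.4.6), figures with matplotlib 3.10.9.

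The 9 members with a row are described. Of the lists, up to 3 called genes with the largest change were named in a comparison, and also genes beside a count of 5 or fewer. *Lpar6* and *Tmppe* were chosen after their values were seen, for their overlap with members. Members and lists were chosen with earlier results of these data known. Depth was estimated from genes with a single GENCODE M21 transcript of 1500 to 8000 bases, as the mode of 1 read's worth of FPKM, and M21 is not the authors' annotation. The alternatives were other scalings, pseudocounts, filters and moderation, a fold threshold of 1.5, a replicate block, other libraries in the fit and leaving out each library.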

Additional observations from a re-analysis of the deposited data

How the results depend on the processing

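Of the 34 member calls, 21 held under all alternatives other than a required fold of 1.5, 8 of these held under that as well, and 0 reversed. With median-ratio scaling, *Mettl14* OE against Control OE had 1 call rather than 0, *Mettl3* OE against Control OE 10 (3 higher and 7 lower) rather than 5, and *Mettl14* OE against *Mettl3* OE 2 rather than 1. Quantile normalization gave 1 call for *Mettl14* OE against Control OE, 2 for *Mettl14* OE against *Mettl3* OE and 3 rather than 6 for day 15 against day 12. A filter at 5 FPKM gave 1 for *Mettl14* OE against Control OE. No filter gave 3 and other libraries in the fit gave 9 for *Mettl3* OE against Control OE. A fold of 1.5, a stricter rule by construction, left 2 of 5 for *Mettl3* OE against Control OE, 0 of 5 for the mean of 5 days, 2 of 5 for Control OE day 3 against MEF, 3 of 12 for day 9 against day 6 and 0 of 6 for day 15 against day 12. The cause of the other differences was not tested.

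Replicate numbers were not used to pair the libraries in the main fits. Same-numbered libraries of a day correlated at -0.38 to 0.44, and 6 of 9 such pairs were above 0.1 on day 6 (median 0.22, against -0.17 for other pairs), 3 on day 12, 2 on day 9 and 0 on days 3 and 15. On day 6 the same-numbered libraries were thus more alike than others. With a replicate block *Mettl3* OE against Control OE had 10 calls. On day 6 these added *Cdkn2a* (-0.32, adjusted p = 0.033), *Cdkn2b* (-0.38, adjusted p = 0.0095), *Cdkn1b* (-0.35, adjusted p = 0.027) and *Glb1* (-0.34, adjusted p = 0.014), and on day 3 *Cdkn2a* (-0.41, adjusted p = 0.049), and the other counts stayed within 1.5 times.

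Leaving out a library gave 0 to 2 calls for *Mettl14* OE against Control OE, 4 to 6 for *Mettl3* OE against Control OE, 1 to 3 for *Mettl14* OE against *Mettl3* OE, 4 to 9 for the mean of 5 days, 4 to 5 for Control OE day 3 against MEF, 11 to 13 for day 9 against day 6, 3 to 7 for day 15 against day 12 and 0 for the step differences. The 9 calls came without Control OE day 12 replicate 2, and the 3 without *Mettl14* OE day 15 replicate 2 or day 12 replicate 3. Depth is an estimate, and FPKM values hold no counts from which a counting error could be had. With 3 libraries a group, an uncalled difference may still be present.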
